A study of Mus musculus with 15 samples.

Results

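The limb and lateral plate mesenchyme factors described here are 10 genes of transcription factors, Prrx1, Prrx2, Tbx5, Tbx4, Pitx1, Hand2, Shox2, Tbx15, Meis1 and Meis2. They were taken by name from the 30534 gene features counted in sections of mouse embryos. All 10 were counted, with 38775 counts in tissue over the 11 transcript libraries. The sections were measured by barcoding in tissue, in which channels flowed over the section in both directions give each crossing, a pixel, its own barcode. Mouse embryos at embryonic day 10 (E10) were measured at a pixel width of 10 µm (2 libraries), 25 µm (1) and 50 µm (3), E11 embryos at 10 µm (2) and 25 µm (2), and an E12 embryo at 50 µm (1). The labels name no strain, sex, treatment or genotype, and the embryo and the body region behind each section are not labelled.

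The limb buds grow out of the lateral plate mesoderm, the sheet of mesoderm that also gives the heart and the body wall. Tbx5 is active in the field that forms the forelimb and also in the heart, while Tbx4 and Pitx1 are active in the field that forms the hindlimb. Prrx1 and Prrx2 are homeobox genes of limb, body wall and facial mesenchyme, and the other members shape parts of the limb: Hand2 the posterior bud, Shox2 the proximal skeleton, Tbx15 the skeleton and dorsal mesenchyme, Meis1 and Meis2 the proximal part. Several are also used elsewhere in the embryo, the Meis genes and Shox2 in the nervous system and Pitx1 in the first branchial arch and the pituitary.

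The libraries held 1563489 to 11998765 counts in 829 to 2271 tissue pixels each. Sections differed in the organs they held. Over a list of 9 heart muscle genes the summed level ran from 14.9 CPM (counts per 1000000 counts) in E10 10 µm replicate 2 to 5273 CPM in E11 10 µm replicate 2, and over a list of 6 liver genes from 17.3 to 3931 CPM. Replicates of 1 group were also unlike. Of the heart list, E10 10 µm replicates 1 and 2 had 2601 and 14.9 CPM. At E11 10 µm, replicate 1 had 70.8 CPM of the heart list, 159 CPM of a list of 8 craniofacial mesenchyme genes and 1103 CPM of a list of 9 neural genes, and replicate 2 had 5273, 12.4 and 216 CPM. Differences between groups below therefore hold both stage and the part of the embryo cut, which cannot be told apart. In E11 25 µm replicates 1 and 2 the same grid positions carried alike values (Pearson r over 1386 shared tissue positions 0.737 for Prrx1 and 0.972 for the heart list, against at most 0.424 and 0.755 in the other 54 pairs of libraries). Whether they came from 1 embryo is not stated, so calls of members that were lost when these replicates were summed as 1 library are named. Less RNA of a gene per cell and fewer cells that express it cannot be told apart in any of these values, and p-values measure only the spread between these libraries, which may be technical.

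Prrx1 was counted in every section and was highest in the E12 section. Its level over tissue was 92.3 and 51.1 CPM in the E10 10 µm replicates, 85.7 CPM at E10 25 µm and 55.0, 119 and 50.1 CPM in the E10 50 µm replicates. It was 174 and 41.2 CPM in the E11 10 µm replicates, 59.6 and 115 CPM in the E11 25 µm replicates and 266 CPM at E12. The E10 and E11 ranges overlapped, with the highest and the lowest of them in the same group, E11 10 µm. Prrx1 lies at chr1:163245119-163313710 on the minus strand (GRCm38, GENCODE M21), where 3 other annotated genes overlap it. The deposited symbols carry no strand information, so reads of overlapping genes may be shared.

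Prrx2, the close relative of Prrx1 at chr2:30834972-30881251 (plus strand), was 47.3 and 29.2 CPM in the E10 10 µm replicates, 40.9 CPM at E10 25 µm and 17.8, 19.1 and 12.98 CPM in the E10 50 µm replicates. It was 75.1 and 20.1 CPM in the E11 10 µm replicates, 58.0 and 28.5 CPM in the E11 25 µm replicates and 24.9 CPM at E12. All 3 sections at E10 50 µm lay below the other 8 sections, and the E12 section did not share the high level that it had for Prrx1.

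The stretch before the Prrx1 start is shown because Prrx1 sets the domain used below, and that of Hand2 because it holds the same homeobox core motif as Prrx1. They come from the 250 bases before the RefSeq start in a table of GRCm38.p6, in which 7 of the 10 members had an entry. The Prrx1 stretch ends where the gene begins in GENCODE M21, which leaves out 60 bases next to the RefSeq start. For Tbx4, Prrx2 and Meis2 the RefSeq start lies inside the gene as GENCODE M21 annotates it, and their stretches are not shown. Capitals mark TAATTA, a palindromic core bound by many paired-type homeobox proteins. The Prrx1 stretch is chr1:163313711-163313900 (minus strand) and that of Hand2 chr8:57320733-57320982 (plus).
Prrx1: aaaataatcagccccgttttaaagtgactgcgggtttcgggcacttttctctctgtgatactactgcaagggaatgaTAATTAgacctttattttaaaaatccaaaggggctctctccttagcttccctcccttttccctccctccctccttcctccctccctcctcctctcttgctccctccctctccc
Hand2: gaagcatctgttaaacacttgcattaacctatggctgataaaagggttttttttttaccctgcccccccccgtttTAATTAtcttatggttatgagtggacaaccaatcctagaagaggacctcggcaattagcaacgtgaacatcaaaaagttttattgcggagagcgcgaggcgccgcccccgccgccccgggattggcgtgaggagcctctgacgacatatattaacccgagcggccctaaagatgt
TAATTA begins at position -173 from the RefSeq start in Prrx1 and at -175 in Hand2, and it was found in none of the other 5 stretches. Of 32851 mouse promoters in the same table, 4.84% hold it in the same window. TGACAG, a core bound by Meis proteins, and AGGTGT, a core bound by T-box proteins, were searched on both strands and were found in none of the 7 stretches, against 15.9% and 11.8% of all promoters. The E-box CANNTG, which Hand proteins can bind, occurred 3 times before the RefSeq start of Tbx4, 2 times before Hand2 and 1 time before Meis1, against a share of 66.2% of promoters with at least 1. None of the E-boxes overlapped a TAATTA. These are matches of letters only.

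Tbx5, which specifies the forelimb and acts in the heart, varied from no count to 30.6 CPM. Its level was 4.50 and 0.189 CPM in the E10 10 µm replicates, 1.28 CPM at E10 25 µm and 0.881, 2.38 and 4.80 CPM in the E10 50 µm replicates. It was 0 CPM in E11 10 µm replicate 1, where the depth allows up to 1.17 CPM, and 30.6 CPM in replicate 2, then 13.8 and 12.5 CPM in the E11 25 µm replicates and 22.0 CPM at E12. The section without a Tbx5 count was also low in the heart list, and its part in the difference was not tested. Apart from that section, every E11 and E12 section lay above every E10 section. Tbx5 lies at chr5:119832668-119885219 (plus strand) with no overlapping gene.

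Tbx4, the hindlimb T-box gene at chr11:85886422-85916097 (plus strand), was near the floor at E10 and countable later. It was 0.250 and 0.189 CPM in the E10 10 µm replicates, 0.640 CPM at E10 25 µm and 0.264, 1.43 and 1.22 CPM in the E10 50 µm replicates, which are 1 to 13 counts each. At E11 it was 0.389 and 4.38 CPM at 10 µm and 9.87 and 22.9 CPM at 25 µm, and it was 19.8 CPM (129 counts) at E12. Only E11 10 µm replicate 1 among the later sections fell into the E10 range.

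Pitx1, a homeobox gene that acts before Tbx4 in the hindlimb field, followed another order. It was 8.67 and 0.377 CPM in the E10 10 µm replicates, 3.20 CPM at E10 25 µm and 5.46, 1.79 and 2.63 CPM in the E10 50 µm replicates. It was 25.7 and 0.729 CPM in the E11 10 µm replicates, 23.9 and 18.9 CPM in the E11 25 µm replicates and 28.2 CPM at E12. E11 10 µm replicate 1 thus held 66 counts of Pitx1 beside 1 of Tbx4 and 0 of Tbx5, while replicate 2 held 2, 12 and 84. Replicate 1 was the section with the highest level of the craniofacial list, and Pitx1 is also a gene of the first branchial arch, whose part in the value was not tested. Pitx1 (chr13:55825051-55836192, minus strand) overlaps 2 other annotated genes.

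Hand2, a posterior limb and heart gene at chr8:57320983-57324633 (plus strand), was 2.00 and 0 CPM in the E10 10 µm replicates (the zero allows up to 0.566 CPM), 2.56 CPM at E10 25 µm and 2.29, 1.31 and 2.35 CPM in the E10 50 µm replicates. It was 0.389 and 25.9 CPM in the E11 10 µm replicates, 7.50 and 15.0 CPM in the E11 25 µm replicates and 10.6 CPM at E12. Its order over the E11 and E12 sections put E11 10 µm replicate 2 highest and replicate 1 lowest, as for Tbx5. Its antisense neighbour Hand2os1 overlaps it, and reads of both strands may be shared.

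Shox2, at chr3:66971727-66981771 (minus strand), was among the more even members apart from 1 section. It was 22.8 and 0.755 CPM in the E10 10 µm replicates, 33.3 CPM at E10 25 µm and 31.9, 28.7 and 35.0 CPM in the E10 50 µm replicates. It was 12.1 and 34.3 CPM in the E11 10 µm replicates, 15.6 and 15.8 CPM in the E11 25 µm replicates and 53.5 CPM at E12. The low section, E10 10 µm replicate 2, held 4 counts, and it was also the section lowest in the heart list.

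Tbx15 (chr3:99240381-99354259, plus strand) was low throughout, at 5.67 and 4.15 CPM in the E10 10 µm replicates, 2.56 CPM at E10 25 µm and 4.41, 2.26 and 3.86 CPM in the E10 50 µm replicates. It was 2.72 and 0 CPM in the E11 10 µm replicates (the zero allows up to 1.09 CPM), 2.76 and 3.78 CPM in the E11 25 µm replicates and 15.4 CPM at E12. The E12 section lay apart from the other 10, which overlapped.

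Meis1 and Meis2, partners of Hox and Pbx proteins, were broadly present. Meis1 (chr11:18879817-19018985, minus strand) was 46.7 and 37.9 CPM in the E10 10 µm replicates, 94.0 CPM at E10 25 µm and 124, 99.9 and 138 CPM in the E10 50 µm replicates. It was 59.1 and 106 CPM in the E11 10 µm replicates, 111 and 142 CPM in the E11 25 µm replicates and 139 CPM at E12. At E10 the 10 µm sections lay below the 50 µm sections without overlap.

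Meis2 (chr2:115863064-116065839, minus strand) was 95.4 and 198 CPM in the E10 10 µm replicates, 247 CPM at E10 25 µm and 282, 304 and 287 CPM in the E10 50 µm replicates. It was 152 and 117 CPM in the E11 10 µm replicates, 148 and 257 CPM in the E11 25 µm replicates and 399.7 CPM at E12. Again the E10 10 µm sections lay below those at 50 µm, and the E12 section was the highest.

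**Figure D1:**
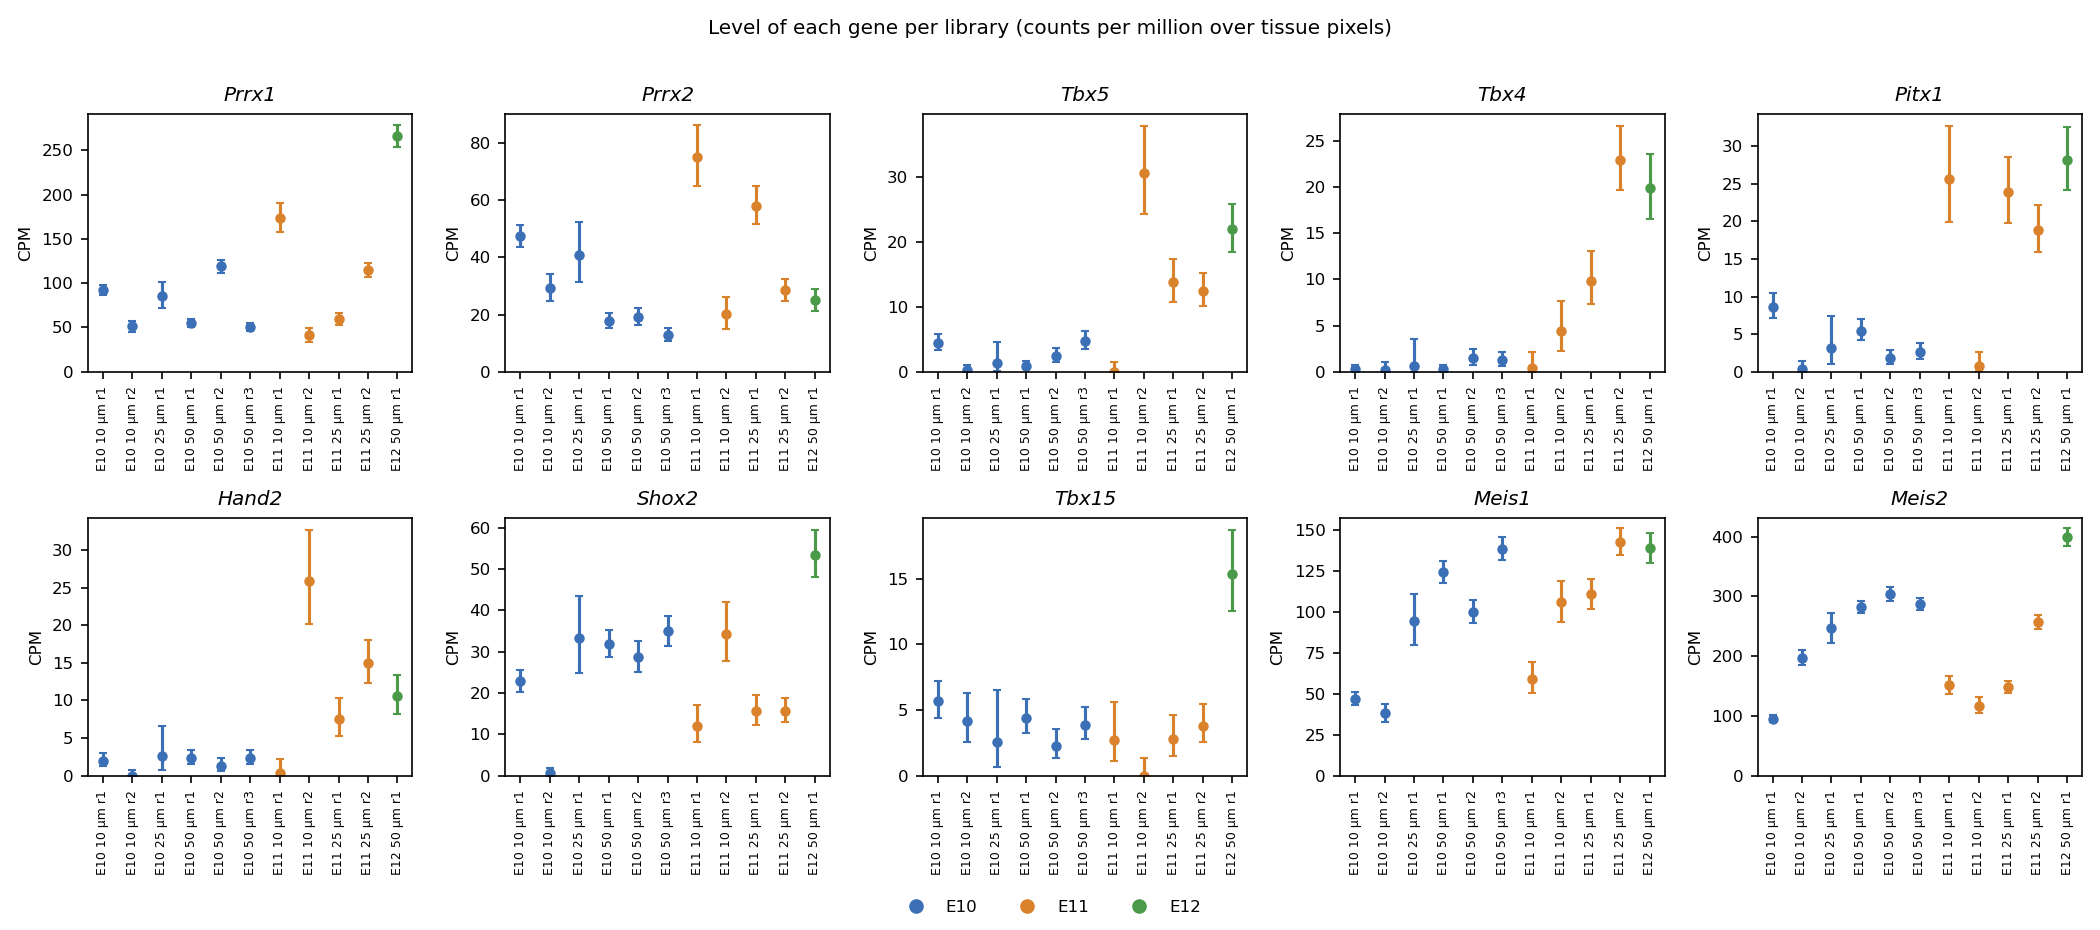
Level of each of the 10 genes in each of the 11 libraries, in CPM over tissue pixels (linear axis from 0, a separate scale for each gene), with exact 95% Poisson intervals that cover counting error only and colours for stage. Tbx5, Tbx4, Pitx1 and Hand2 are low in the E10 sections and differ strongly between the E11 10 µm replicates, while Prrx1, Tbx15 and Meis2 are highest in the E12 section.

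Between stages, Tbx4 was the 1 member called in the edgeR test of E12 against E10. At 50 µm it was 19.8 CPM at E12 (n = 1) against 0.972 CPM ± 0.622 (SD, n = 3) at E10, a log2 difference of 4.30 (SE 0.81, adjusted p = 0.0202, edgeR quasi-likelihood test on summed counts, Benjamini-Hochberg). Of the 10 members, 1 was called in this comparison, against 2.14% of the 18233 genes tested. The call was lost when E10 50 µm replicate 1 or 3 or either E11 25 µm library was left out (edgeR adjusted p up to 0.0925) and when the E11 25 µm libraries were summed (edgeR adjusted p = 0.0548), and its direction held throughout. Of 3 members at an unadjusted p under 0.05, the other 2 were not called. Tbx15 was called too without E11 10 µm replicate 1 or 2 (log2 2.09, edgeR adjusted p = 0.0250 and 0.0241), beside 969 of 18140 and 953 of 18098 genes. Without the filter on low counts Prrx1 and Tbx15 were also called (log2 1.73 and 2.06, edgeR adjusted p = 0.00498 and 0.0309), beside 1328 of 30104 genes. The E12 section was the only one of its group and was assumed to vary like the others. The median log2 difference was 1.93 over the members and -0.04 over all genes.

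The other stage comparisons called no member in the edgeR test. E11 against E10 at 10 µm called 0 of 10 members (4 at an unadjusted p under 0.05, DESeq2 1, which was Tbx4) beside 3.33% of all genes, and the median log2 difference was 0.94 over the members and -0.01 over all genes. E11 against E10 at 25 µm called 0 (1 unadjusted, DESeq2 0) beside 0.455% of genes. The 10 µm comparison rested on unlike sections. Without E11 10 µm replicate 1, which left 1 library at E11, the log2 difference was 4.18 for Tbx4, 4.46 for Hand2 and 1.34 for Meis1. It was -8.15 for Tbx15, of which the remaining library held 0 counts. That zero allows up to 1.09 CPM, against 4.91 CPM ± 1.07 (SD, n = 2) at E10 10 µm, so the size of this difference is not measured. Without E10 10 µm replicate 1, which left 1 library at E10, it was 4.88 for Shox2.

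Pixel widths were also compared within a stage. At E11, 10 µm against 25 µm called 0 members (2 unadjusted, DESeq2 1, Tbx4) beside 2.07% of genes, and without E11 10 µm replicate 2 Tbx4 was called lower at 10 µm (log2 -5.47, edgeR adjusted p = 0.049). At E10, 10 µm against 50 µm called 0 (3 unadjusted) beside 0.11% of genes. DESeq2 called Meis1 lower at 10 µm there (log2 difference -1.45, adjusted p = 0.0014), beside 407 of 14929 genes. The edgeR test did so without either E11 10 µm library (adjusted p = 0.0307 and 0.0304), beside 155 of 18140 and 164 of 18098 genes. Without E10 10 µm replicate 1, edgeR called Shox2 lower at 10 µm in its place (log2 -5.27, adjusted p = 0.0234). A difference in the change with stage between 10 µm and 25 µm was called for no member (0 called, 0 unadjusted, DESeq2 0) beside 0.137% of genes, and without E10 10 µm replicate 1 Shox2 was called for it (log2 -5.68, edgeR adjusted p = 0.0456).

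The other limb genes were taken from a list of 41 that signal, pattern or pattern with the members, of which 39 were tested. At E12 against E10, 3 were higher and 2 lower. Osr1, a gene of irregular connective tissue, was 60.9 CPM at E12 against 8.49 CPM ± 1.27 (log2 2.80, edgeR adjusted p = 0.00200), and Twist2, a mesenchymal factor, was 16.9 against 4.31 CPM ± 1.00 (log2 1.93, edgeR adjusted p = 0.0477). Hoxd13, the gene of the distal autopod, had 60 counts at E12 and 0 over the 3 E10 sections, at least 93.5-fold higher against a floor of 3 counts over the group. Sall4, a zinc finger gene of early limb buds and progenitors, was 5.54 CPM at E12 against 32.9 CPM ± 18.0 (log2 -2.59, edgeR adjusted p = 0.0435), and Meis3 was 15.7 against 64.8 CPM ± 16.0 (log2 -2.08, edgeR adjusted p = 0.0278).

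Fgf10, the mesenchymal signal that drives limb outgrowth, was the 1 list gene called at E11 against E10 at 10 µm, with 10.5 CPM ± 2.18 (n = 2) against 1.63 CPM ± 0.170 (n = 2) and a log2 difference of 2.65 (edgeR adjusted p = 0.0343). No list gene was called at 25 µm. Fgf10 was 5.76 CPM at E10 25 µm and 4.32, 3.22 and 8.93 CPM in the E10 50 µm replicates. It was 3.36 and 6.64 CPM in the E11 25 µm replicates and 11.2 CPM at E12. Over all widths the E10 and E11 levels of Fgf10 thus overlapped. The Fgf10 call was lost in 3 of 16 alternatives. For E12 against E10 the calls of Sall4, Twist2 and Meis3 were lost in 5, 6 and 2 of 15 alternatives, and those of Osr1 and Hoxd13 held in all 15. Lists of other cell types moved with the E12 comparison. Of the mesenchyme list 3 of 7 genes were called higher, of the cartilage list 2 of 7, of the muscle and somite list 2 of 6, of the epithelium list 1 of 6 and of the red cell list 2 of 6, with 1 lower. The liver list had a median log2 difference of 7.38 with 0 of 6 called, and the neural list -2.27 with 0 of 9 called. Their part in these differences was not tested.

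Forelimb and hindlimb genes were set against each other as the hindlimb share, the counts of Tbx4 and Pitx1 divided by those of Tbx4, Pitx1 and Tbx5 together. It was 66.5% (107 of 161 counts) and 75% (3 of 4) in the E10 10 µm replicates and 75% (6 of 8) at E10 25 µm. In the E10 50 µm replicates it was 86.7% (65 of 75), 57.4% (27 of 47) and 44.6% (41 of 92). These counts include Tbx5 in the heart. Outside the heart domain described below, the share was 75.4% in E10 10 µm replicate 1 and 94.0, 72.4 and 59.6% in the E10 50 µm replicates. Exact binomial 95% intervals of E10 50 µm replicates 1 and 3, 76.8 to 93.4% and 34.2 to 55.3%, did not overlap, so sections of 1 group differed by more than counting error.

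At E11 the 10 µm replicates took opposite ends, with 100% (67 of 67 counts, exact interval from 94.6%) and 14.3% (14 of 98, 8.04 to 22.8%). The 25 µm replicates were at 71.0% (171 of 241) and 77.0% (321 of 417), and the E12 section at 68.6% (312 of 455). The alike E11 25 µm replicates are 2 of these 3 values. Replicate 1 at 10 µm reached its share through Pitx1 alone, and with Tbx4 as the only hindlimb gene its share came from a single count.

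The groups were too small for a test of this share to pass 0.05. At E11 it was 57.1% ± 60.6 (SD, n = 2) at 10 µm and 74.0% ± 4.26 (n = 2) at 25 µm (two-sided exact permutation p = 1, the smallest possible being 0.333). At E10 it was 70.7% ± 6.04 (n = 2) at 10 µm, where 1 of the values rests on 4 counts, and 62.9% ± 21.6 (n = 3) at 50 µm (two-sided exact permutation p = 0.7, smallest possible 0.1). The sign of both differences turned when 1 library was left out: the E11 difference went from -16.8 to 26.0 points without E11 10 µm replicate 2, and the E10 difference from 7.84 to -1.33 points without E10 50 µm replicate 3.

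Where the members lay in the sections was described by Moran's I, the likeness of a pixel to its 4 neighbours on a scale where 0 is no pattern, in libraries with at least 20 pixels that held a count. The median was 0.225 for Prrx1 (11 libraries, 0.0143 to 0.533), 0.224 for Shox2 (10), 0.208 for Pitx1 (7), 0.190 for Meis2 (11), 0.178 for Tbx4 (3) and 0.160 for Tbx5 (6). It was lower for Hand2 (0.0845, 7 libraries), Prrx2 (0.0757, 11), Tbx15 (0.0708, 6) and Meis1 (0.0553, 11). Prrx1 ranged from nearly no pattern in E10 10 µm replicate 2 to the highest value in E11 25 µm replicate 2. The index falls with sparse counts and so cannot be compared between genes of different depth.

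A Prrx1 domain was then drawn in each library as the 10% of tissue pixels with the highest Prrx1 count per 10000 counts over a pixel and its up to 8 tissue neighbours. It held 4.91 to 10.4% of a library's counts. In the 3 E10 50 µm sections and both E11 25 µm sections, 54.2 to 73.3% of it formed 1 connected patch, and in the other 6 sections 13.6 to 35.7% did. Prrx1 itself, which chose the pixels, was 3.19 to 32.0 times higher inside than outside, which is a description only. Pixels just inside and just outside the limit differed little, for example 3.57 and 3.55 counts per 10000 in E11 25 µm replicate 2.

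**Figure D2:**
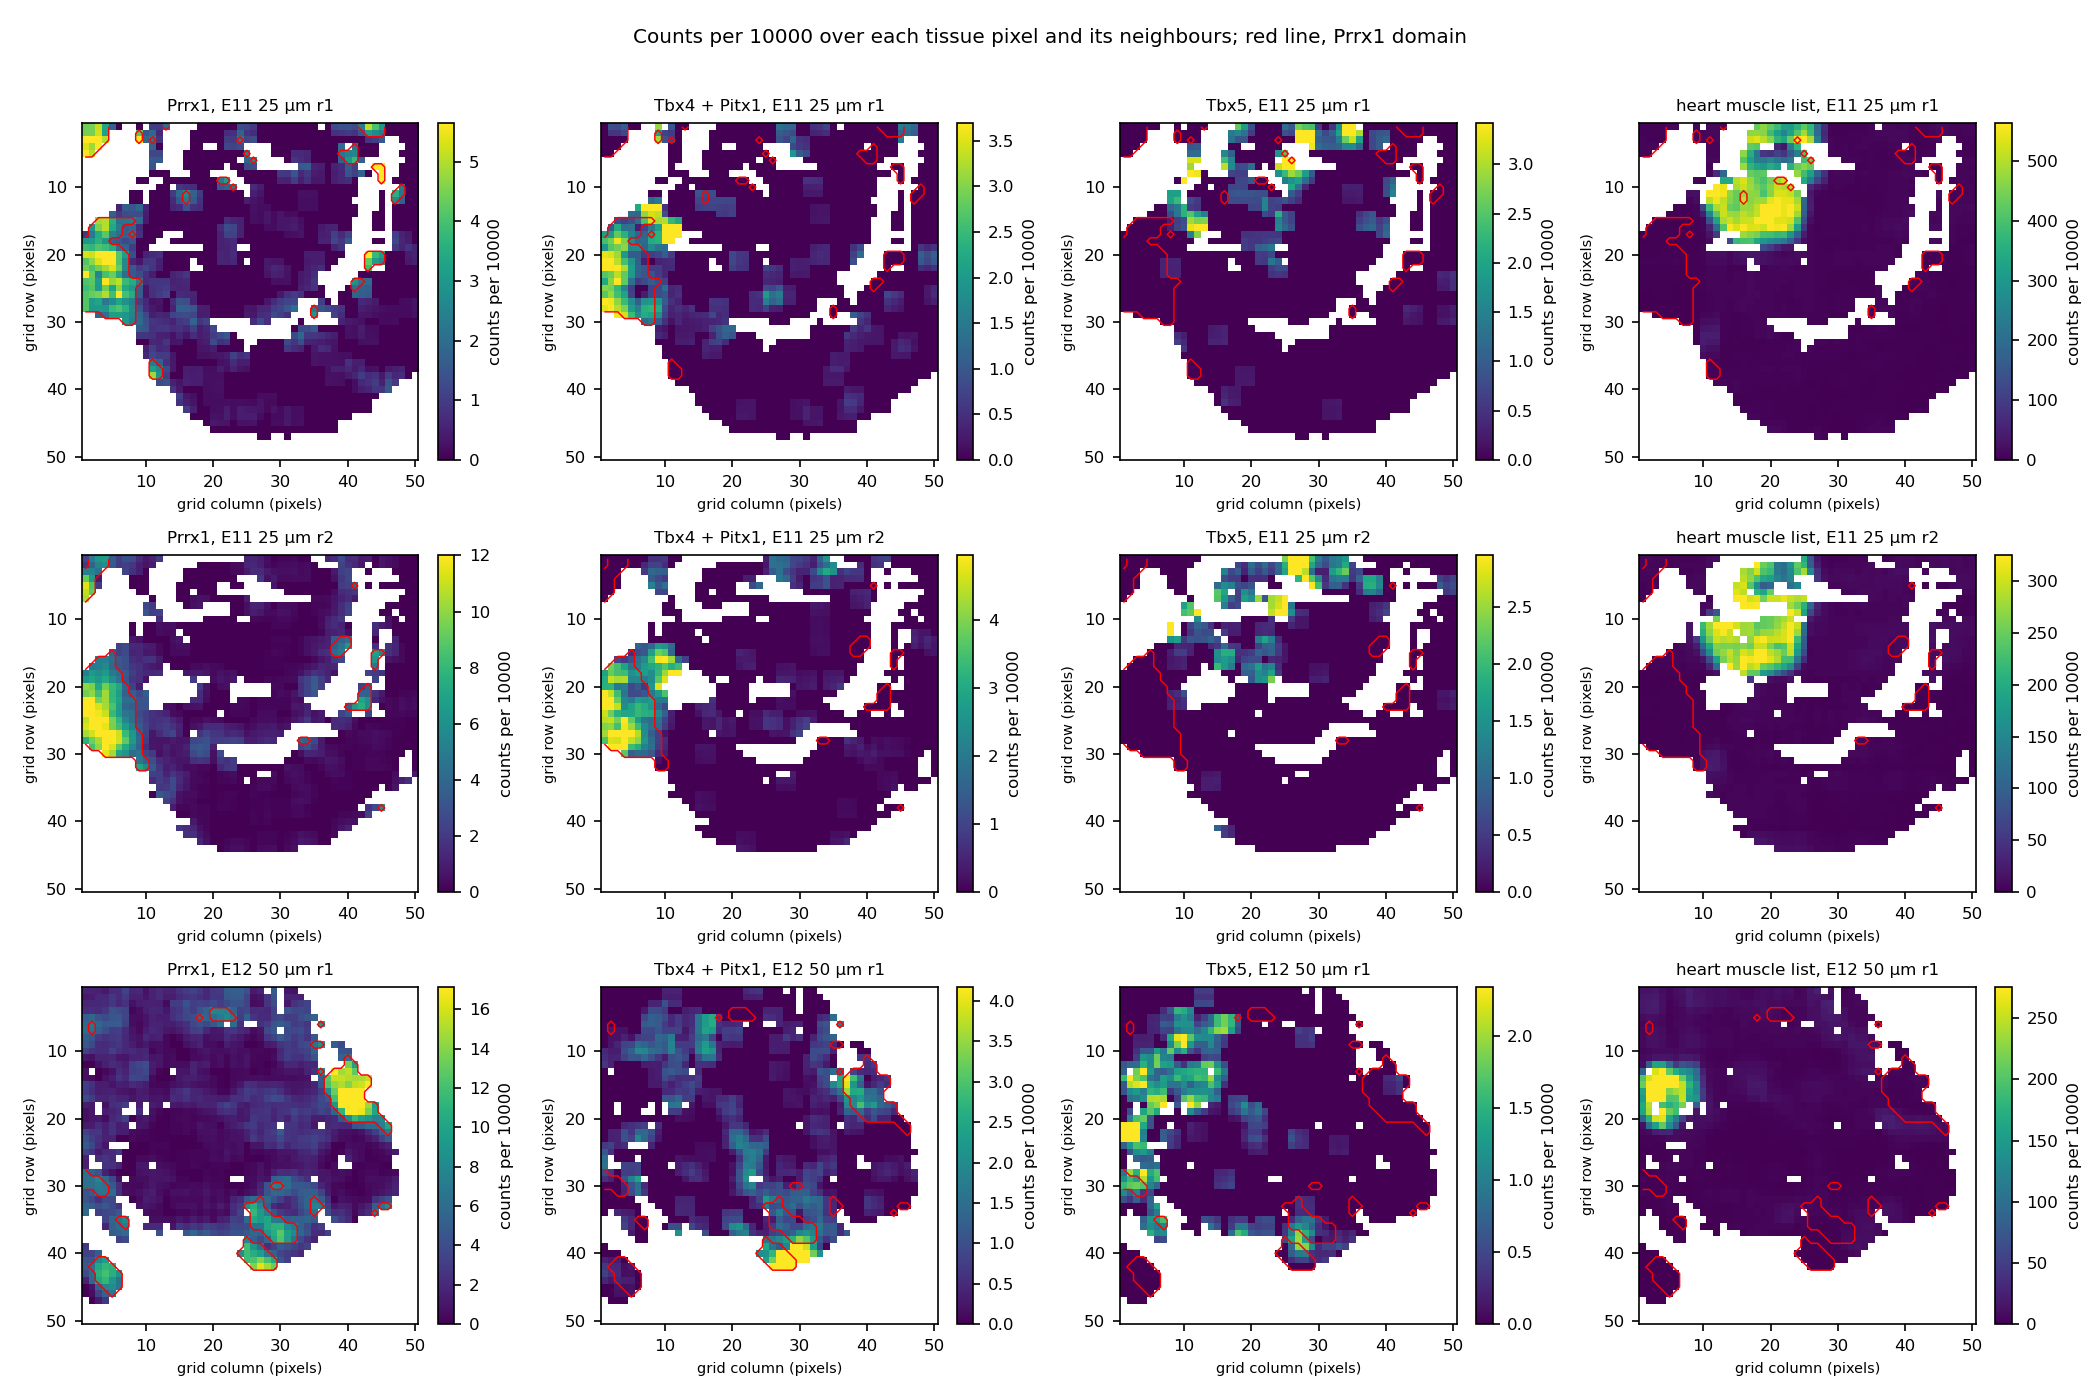
Maps of 3 sections (rows: E11 25 µm replicates 1 and 2, E12 50 µm) for Prrx1, Tbx4 with Pitx1, Tbx5 and the heart muscle list (columns). Colour gives counts per 10000 over a pixel and its neighbours up to the 99th percentile, axes are pixel rows and columns, and the red line bounds the Prrx1 domain. In the E11 25 µm sections Tbx4 and Pitx1 are high over the large Prrx1 patch and Tbx5 is high elsewhere, partly over the heart.

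Prrx2 was higher in the Prrx1 domain than outside it. It was 99.9 CPM ± 90.6 (SD, n = 11 libraries) inside and 27.4 CPM ± 15.4 outside, higher inside in 10 of 11 libraries, with a log2 difference of 1.76 (SE 0.35, adjusted p = 0.0118, edgeR with library as block). By library it was 1.22 and 1.71 times higher inside in the E10 10 µm replicates, 3.57 times at E10 25 µm and 3.25, 1.81 and 5.62 times in the E10 50 µm replicates. It was 3.34 times higher in E11 10 µm replicate 1, 0.542 times as high in replicate 2 (2 counts inside), 10.2 and 8.69 times higher in the E11 25 µm replicates and 3.02 times higher at E12. Of the 4 members that passed the filter on low counts besides Prrx1, this 1 was called, against 6.3% of the 10449 genes tested. The call held in all 17 alternatives tried for it (adjusted p at most 0.0389).

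The remaining 3 of those members were not called over all libraries: Shox2 (log2 1.21, 95% interval 0.16 to 2.27, edgeR adjusted p = 0.285), Meis1 (0.30, -0.07 to 0.68, edgeR adjusted p = 0.499) and Meis2 (0.07, -0.20 to 0.35, edgeR adjusted p = 0.886). Tbx5, Tbx4, Pitx1, Hand2 and Tbx15 did not pass the filter, and are given by their counts. Without the filter edgeR also called Tbx4 (log2 2.26, adjusted p = 9.28e-09), beside 6.84% of 30103 genes, and DESeq2 called Prrx2, Tbx4 and Tbx15 (Tbx15 log2 1.99, adjusted p = 0.00579), beside 4.59% of 14345 genes.

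In the E11 25 µm and E12 sections the hindlimb genes were at higher levels inside the Prrx1 domain than outside it, though at E12 and for Tbx4 in E11 25 µm replicate 1 most of their counts lay outside. Tbx4 was 6.74, 12.2 and 3.60 times higher inside than outside in E11 25 µm replicates 1 and 2 and E12 (21 of 50, 101 of 176 and 38 of 129 counts inside). Pitx1 was 10.8, 19.0 and 3.51 times higher (65 of 121, 98 of 145 and 53 of 183 counts inside). Tbx15 was 23.3, 56.8 and 6.24 times higher (10 of 14, 25 of 29 and 42 of 100 counts inside). All 9 of these ratios had exact 95% intervals above 1.

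Tbx5 differed from them in the same sections. It had 0 of 70 and 0 of 96 counts inside the domain in the E11 25 µm replicates, which allows at most 0.504 and 0.356 times the outside level (upper 95% limit), and 16 of 143 counts inside at E12, a ratio of 1.09. Pitx1 was not higher in the domain everywhere: it was 0.428 times as high inside in E10 10 µm replicate 1 (4 of 104 counts) and 0.324 times in E11 10 µm replicate 1 (2 of 66 counts), and in E10 50 µm replicate 1 it was 0.347 times as high (2 of 62). In E10 50 µm replicate 3 it was 4.21 times higher (5 of 28 counts). The exact 95% intervals of the first 3 of these ratios included 1 (upper limits 1.13, 1.22 and 1.31), and that of the last began at 1.25.

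Hand2 was at a higher level in the domain in the E10 50 µm sections and in 1 of the 5 later sections. Of the 7 libraries with at least 20 Hand2 counts, 3 were higher inside and 4 lower (lowest ratio 0.466). The lower ones include E10 10 µm replicate 1 and E11 10 µm replicate 2, so the pattern does not hold for E10 as a whole. In the E10 50 µm replicates it was 16.7, 9.44 and 12.9 times higher inside the Prrx1 domain (16 of 26, 5 of 11 and 10 of 25 counts). In the E11 25 µm replicates and E12 it was 0.798, 1.26 and 0.530 times as high (3 of 38, 14 of 115 and 4 of 69 counts). In the same E10 50 µm sections the Prrx1 domain shared 57.0, 25.3 and 36.9% of its pixels with the domain of the heart list, against 0 to 10.2% in the other 8 sections. Hand2 is a gene of both tissues, and the part of this overlap in the Hand2 values was not tested.

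**Figure D3:**
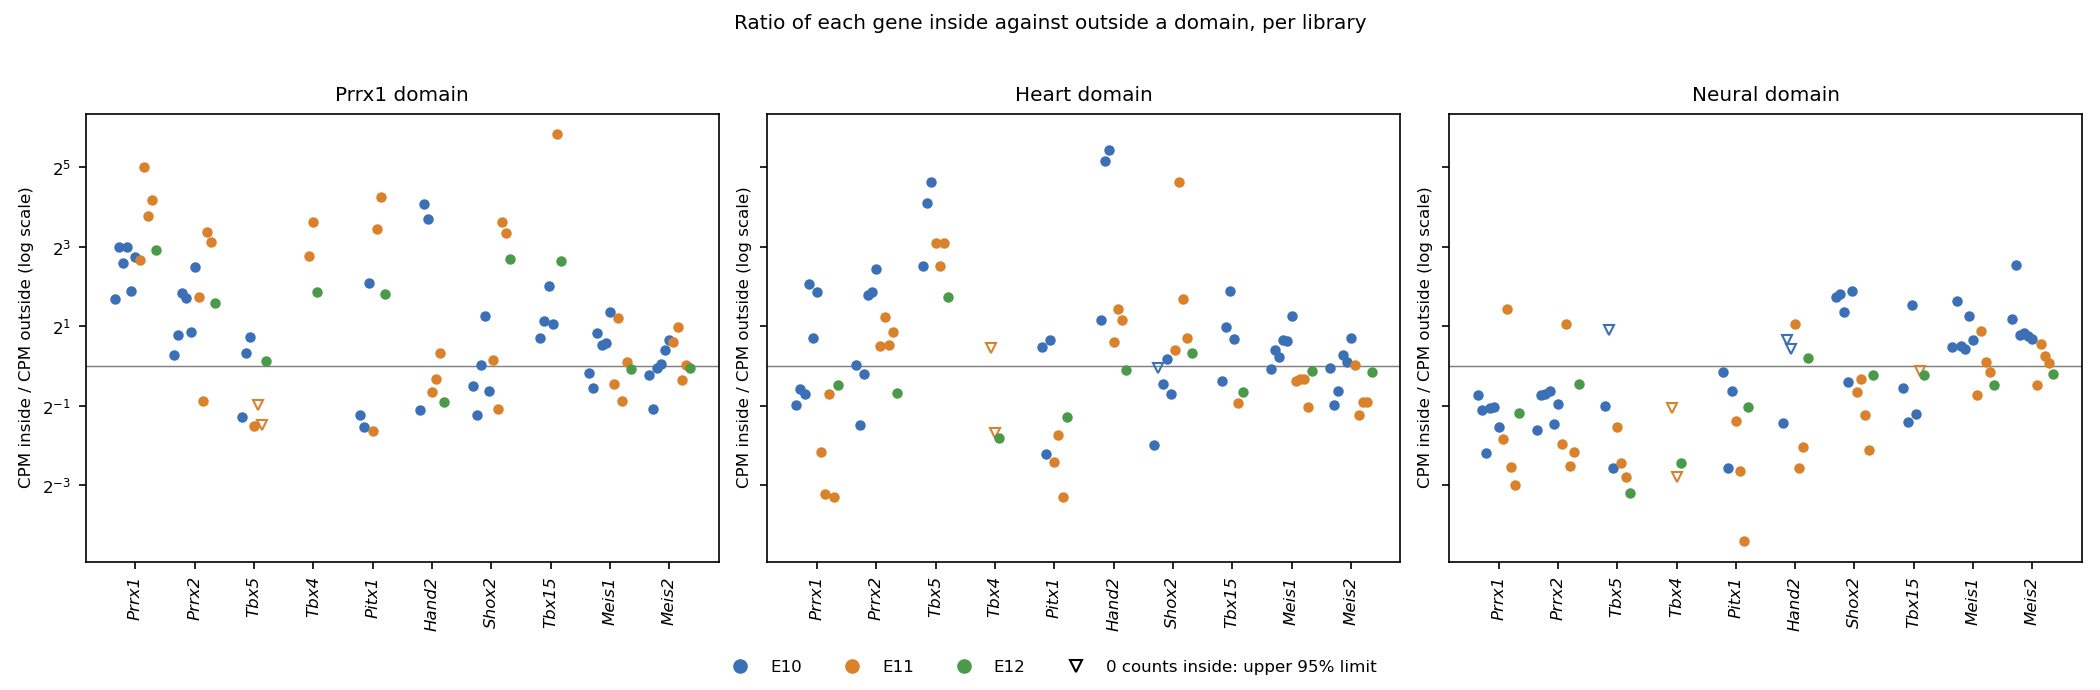
Ratio of the level inside to that outside 3 domains (panels: Prrx1, heart list and neural list, each the top 10% of tissue pixels) for each gene and each library with at least 20 counts of it, on a log2-scaled axis. Open triangles mark 0 counts inside and stand at the upper 95% limit, and the line marks a ratio of 1. In the Prrx1 domain Prrx2 lies above 1 in 10 of 11 libraries and Tbx4 and Tbx15 in every library shown, and Tbx5 lies above 1 in the heart domain in every library shown.

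The hindlimb share was compared inside and outside the Prrx1 domain in the 4 libraries with at least 10 counts of the 3 genes on both sides. Counts in the heart domain were kept, and their part in the difference was not tested. The share was 63.6% inside (7 of 11 counts) and 42.0% outside in E10 50 µm replicate 3, and 85.0% (91 of 107) and 63.5% at E12. It was 100% (86 of 86 and 199 of 199 counts, exact intervals from 95.8 and 98.2%) inside and 54.8 and 56.0% outside in the E11 25 µm replicates. The share was higher inside in 4 of 4 libraries, by 33.1 points in the mean (87.2% ± 17.2 against 54.1% ± 8.93, SD) and by 29.3 points with the alike E11 25 µm replicates averaged as 1. E10 50 µm replicate 1, left out because 6 of these counts lay inside, ran the other way, with 50% inside (3 of 6) and 89.9% outside (62 of 69). The two-sided exact sign-flip permutation p was 0.125, which is the smallest that 4 libraries allow.

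**Figure D4:**
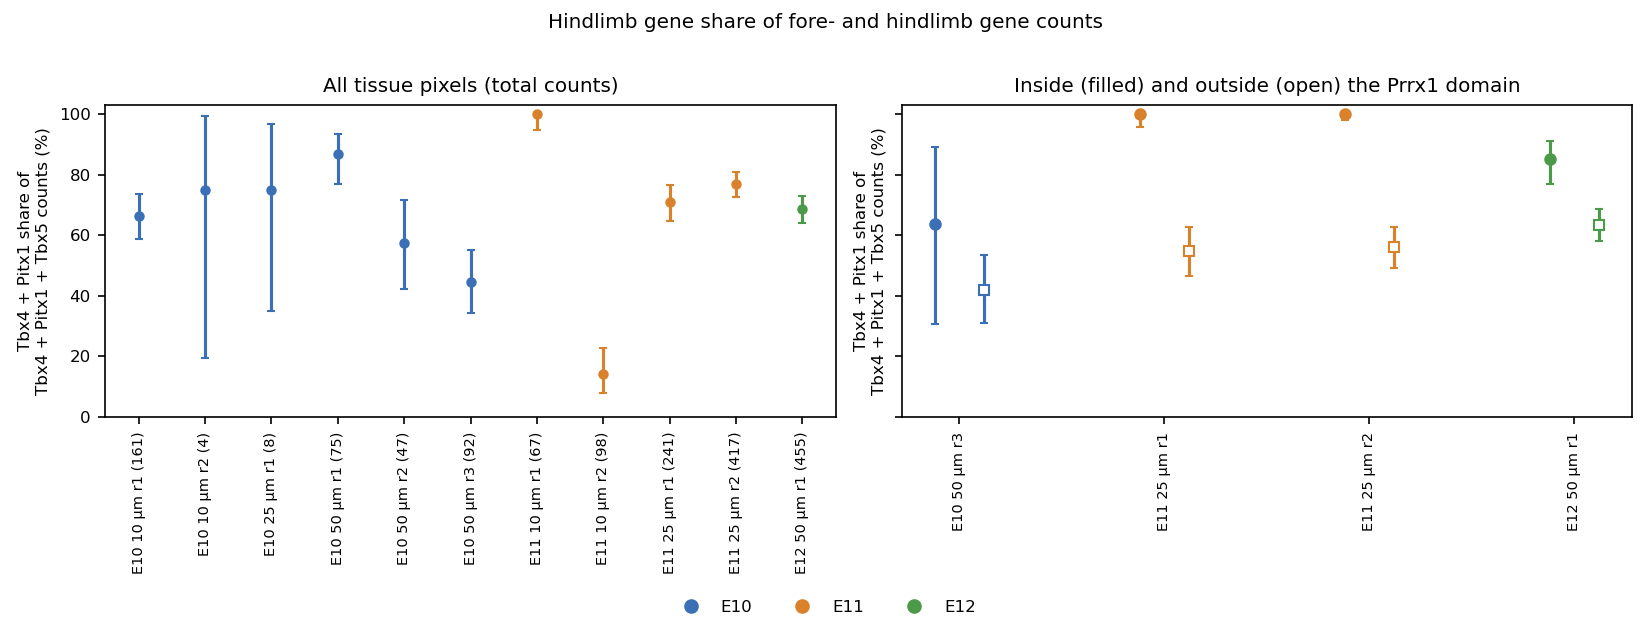
Hindlimb share, the percent of Tbx4, Pitx1 and Tbx5 counts that are Tbx4 or Pitx1, with exact 95% binomial intervals. Left, each of the 11 libraries; right, inside (filled) and outside (open) the Prrx1 domain in 4 libraries. The E11 10 µm replicates sit at 100% and 14.3%, and all 4 libraries on the right are higher inside.

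Outside the members, the called genes with the largest log2 difference in the Prrx1 domain at 20 CPM or more inside included Alx1, Col25a1, Rarg and Mecom. Alx1, an aristaless homeobox gene of facial and limb mesenchyme, was 47.7 CPM ± 38.6 inside and 16.2 ± 15.5 outside (log2 1.70, edgeR adjusted p = 0.00230). Col25a1, a membrane collagen, was 29.2 ± 21.1 and 11.0 ± 8.83 (log2 1.67, edgeR adjusted p = 0.00613), and Rarg, a retinoic acid receptor, was 55.3 ± 26.9 and 20.1 ± 13.1 (log2 1.58, edgeR adjusted p = 0.000107). Mecom, a zinc finger factor, was 167 ± 96.3 and 61.5 ± 39.9 (log2 1.41, edgeR adjusted p = 0.0127).

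Of the list of 41 limb genes, 27 were tested in the Prrx1 domain, with 10 higher, among them Alx1 and Alx4 (log2 1.35, edgeR adjusted p = 0.00743), and 1 lower, Meis3 (log2 -0.56, edgeR adjusted p = 0.0142). Of the neural list, 9 of 9 genes were lower inside, of the mesenchyme list 4 of 7 were higher, and of the heart list 0 of 8 tested were called. Over the 10449 genes, 2.88% were higher and 3.42% lower. All genes of these lists were chosen with earlier results known, and their counts are given as a description.

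The stages were then split, a comparison added after the maps were seen. In the 5 E11 and E12 sections Prrx2 was 147 CPM ± 119 inside and 30.1 ± 18.8 outside the Prrx1 domain (log2 2.37, SE 0.45, adjusted p = 0.0126, edgeR), and Shox2 was 85.2 ± 83.9 inside and 19.5 ± 14.1 outside (log2 2.46, SE 0.53, adjusted p = 0.0248, edgeR). These were 2 of 4 members tested, beside 5.7% of genes. Both calls were lost when the E11 25 µm libraries were summed (edgeR adjusted p = 0.0521 and 0.0773), when either was left out (0.0563 and 0.0830 for Prrx2, 0.0907 and 0.129 for Shox2), and that of Shox2 without E12 (0.110). Shox2 was higher inside in 4 of 5 of these sections: 12.3, 10.2 and 6.45 times in E11 25 µm replicates 1 and 2 and E12 and 1.11 times in E11 10 µm replicate 1.

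In the 6 E10 sections Shox2 was 24.7 CPM ± 20.96 inside and 25.4 ± 13.0 outside (log2 0.05), higher inside in 2 of 6, and Prrx2 was 60.6 ± 30.5 and 25.1 ± 13.4 (log2 1.20, edgeR adjusted p = 0.204). No member was called there in the edgeR test (2 of 4 at an unadjusted p under 0.05), beside 4.48% of genes. Hand2 was called without E10 25 µm replicate 1 (log2 2.83, adjusted p = 0.0018, edgeR), a fit in which it passed the filter, beside 422 of 11296 genes. The difference between the stages was not called for Shox2 (log2 2.41, 95% interval 0.98 to 3.85, adjusted p = 0.211, edgeR) or any other of the 4 members (1 at an unadjusted p under 0.05), beside 0.976% of genes. It was called for Shox2 without E11 10 µm replicate 2 (log2 2.83, edgeR adjusted p = 0.017), beside 146 of 10462 genes. It was called for Hand2 without E10 25 µm replicate 1 (log2 -3.07, edgeR adjusted p = 0.0234), beside 88 of 11296 genes.

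Of the list of 41 limb genes, 8 were higher inside at E10, among them Foxf1, a gene of the splanchnic layer (log2 2.17), Osr1 (1.64) and Alx1 (1.63). At E11 and E12, 9 were higher, among them Msx1 (1.95) and Alx4 (1.79), and Meis3 was lower (-1.03). The E10 call of Alx1 was lost in 8 of 12 alternatives and that of Foxf1 in 2 of 11, and that of Osr1 held in all 12. The E11 and E12 calls of Msx1, Alx4 and Meis3 were lost in 3, 4 and 2 of 12. Foxf1 was the 1 list gene whose difference changed with stage: it was 16.3 CPM ± 13.7 inside and 3.29 ± 1.28 outside at E10, and 9.25 ± 8.73 and 13.9 ± 8.88 at E11 and E12 (log2 -3.26, SE 0.73, edgeR adjusted p = 0.0348). That call was lost in 6 of 11 alternatives, each with 1 library left out (edgeR adjusted p up to 0.112): E10 25 µm, any of the E10 50 µm replicates, E11 25 µm replicate 2 or E12. Of the heart list, 8 of 8 genes were lower inside at E11 and E12 and 0 of 8 were called at E10, and the test of the change with stage called 1 of the 8.

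Of the members tested, Tbx5 had the largest log2 difference in the heart domain. This domain was the 10% of tissue pixels highest in the heart list, drawn in the 8 libraries where that list was patterned. In some sections Hand2 or Shox2 had a higher ratio than Tbx5, as given below. Tbx5 was 57.6 CPM ± 50.6 inside and 8.002 ± 7.73 outside (SD, n = 8), higher inside in 8 of 8, with a log2 difference of 3.13 (SE 0.28, adjusted p = 2.68e-06, edgeR with library as block). The ratio was 5.74 in E10 10 µm replicate 1, 19.8, 17.0 and 24.7 in the E10 50 µm replicates, 8.59 in E11 10 µm replicate 2, 5.72 and 8.49 in the E11 25 µm replicates and 3.33 at E12. Inside counts ran from 6 to 35, and 189 of all 531 Tbx5 counts in the 11 libraries (35.6%) lay in the heart domain.

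Prrx2 was higher in the heart domain as well, at 50.7 CPM ± 18.3 inside and 27.1 ± 16.5 outside, higher in 7 of 8 libraries (log2 1.11, SE 0.30, adjusted p = 0.0347, edgeR). It was 3.46, 3.65 and 5.40 times higher in the E10 50 µm replicates, where the Prrx1 and heart domains overlapped, and 0.626 to 2.35 times as high in the other 5. The call was lost in 9 of 15 alternatives (adjusted p up to 0.199), among them each of the E10 50 µm replicates 1 and 2, E11 10 µm replicate 2 and both E11 25 µm replicates left out in turn. It was also lost with the E11 25 µm libraries summed as 1. Tbx5 and Prrx2 were 2 of the 8 members tested, beside 10.9% of 11847 genes called.

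Hand2 was 35.8, 9.43 and 43.2 times higher in the heart domain of the E10 50 µm replicates (19 of 26, 5 of 11 and 17 of 25 counts), 2.22 times in E10 10 µm replicate 1, 1.53 in E11 10 µm replicate 2, 2.70 and 2.22 in the E11 25 µm replicates and 0.941 at E12. It was not called by edgeR (log2 2.18, 95% interval 0.86 to 3.49, adjusted p = 0.0757), and DESeq2 called it (adjusted p = 0.00131), beside 9.84% of genes. Without the E12 section edgeR called it too (log2 2.49, adjusted p = 0.0471), beside 1255 of 11804 genes. Prrx1 itself did not differ beyond the spread (log2 0.16, 95% interval -0.95 to 1.28, edgeR adjusted p = 0.924).

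Shox2 had 1 section of its own kind here. In E11 10 µm replicate 2, 63 of 94 counts lay in the heart domain, 24.4 times the outside level (exact 95% interval 15.7 to 38.9). In the other 7 libraries the ratio was 0.252 to 3.19. Shox2 is a gene of the sinus venosus, the inflow part of the heart. Over the 8 libraries it was not called (log2 0.58, edgeR adjusted p = 0.699).

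Of the list of 41 limb genes, 27 were tested in the heart domain. Tbx18, a gene of the sinus horns and epicardium, was the 1 called higher (log2 0.79, edgeR adjusted p = 0.00649), and 5 were lower, among them Lhx2, Emx2 and Lhx9 (log2 -1.53, -1.31 and -1.24). Over the 11847 genes tested, 821 were called higher and 466 lower. The endothelial list had 5 of 6 genes higher and the neural list 7 of 9 lower in the same pixels, and their part in the member values was not tested.

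In the neural domain, the 10% of tissue pixels highest in the neural list (8 libraries), the mesenchymal members were low. Prrx1 (log2 -1.44, SE 0.23, adjusted p = 0.00191), Prrx2 (-1.47, SE 0.20, adjusted p = 5.41e-05) and Pitx1 (-1.51, SE 0.33, adjusted p = 0.00292) were lower inside in 8 of 8 libraries each in the edgeR test. These were 3 of 6 members tested, beside 24.1% of 11504 genes called and 11.5% called lower. Pitx1 did not pass the filter, and so had no call, in the fit of the top 5% of pixels, in that of all libraries and without E10 10 µm replicate 1. Prrx1 inside was between 0.126 and 0.602 times its outside level. Without the filter and with DESeq2, Tbx4, Tbx5 and Hand2 were called lower too, beside 12.9 and 17.8% of genes.

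Meis2, Meis1 and Shox2 went the other way in E10 sections, with no call over the 8 libraries. Meis2 was 2.27 times higher in the neural domain in E10 10 µm replicate 1, 1.78, 1.67 and 1.60 times in the E10 50 µm replicates, 0.721 in E11 10 µm replicate 1, 1.18 and 1.05 in the E11 25 µm replicates and 0.865 at E12 (log2 0.44, 95% interval 0.05 to 0.82, edgeR adjusted p = 0.157). With the domain drawn without smoothing over neighbours, edgeR called it higher (log2 0.59, adjusted p = 0.0314), beside 2837 of 11541 genes. All 4 E10 ratios were above the 4 later ones. Meis1 was 1.38, 1.35, 2.39 and 1.57 times higher in the same E10 sections and 0.606 to 1.08 times as high in the later ones (log2 0.29, edgeR adjusted p = 0.381).

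Shox2 was 3.33 times higher in the neural domain in E10 10 µm replicate 1, 2.56, 0.752 and 3.72 times in the E10 50 µm replicates, and 0.233 to 0.862 times as high in the 4 later sections (log2 0.60, edgeR adjusted p = 0.411). At E10, 3 of 4 sections thus had a higher Shox2 level inside the neural domain than outside, and the later sections did not. The difference between stages in the neural domain was not tested. The 2 other E10 libraries, in which the neural list was too weakly patterned for the fit, had Meis2 ratios of 5.80 (E10 10 µm replicate 2) and 1.71 (E10 25 µm). Of the limb list, Isl1 (log2 1.64), Meis3 (1.24) and Pbx3 (0.66) were among 4 of 29 called higher in the neural domain, and Tbx2 and Alx1 (-1.70 and -1.70) among 10 called lower. Over the 11504 genes tested, 1451 were called higher and 1320 lower, so the share of the list called higher was near that of all genes.

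The forelimb and hindlimb genes were also followed pixel by pixel in the 4 libraries with at least 50 counts of Tbx5 and of Tbx4 with Pitx1. The 10% of pixels highest in Tbx5 and the 10% highest in Tbx4 with Pitx1 shared 9.68% of pixels in E10 10 µm replicate 1, 11.8 and 8.67% in the E11 25 µm replicates and 16.9% at E12, against the 9.97 to 10.0% of tissue that each set covered. Of the Tbx5 pixels, 40.6, 35.3, 50.0 and 32.5% lay in the heart domain and 6.91, 1.18, 0 and 8.44% in the Prrx1 domain. Of the Tbx4 and Pitx1 pixels, 9.22, 53.5, 59.3 and 33.1% lay in the Prrx1 domain.

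In the E11 25 µm replicates the Tbx4 and Pitx1 pixels formed 1 large patch of 132 pixels each (77.6 and 88.0% of them), of which 65.2 and 67.4% lay in the Prrx1 domain. At E12 the largest patch had 44 pixels (28.6%), 59.1% of them in the Prrx1 domain, and in E10 10 µm replicate 1 it had 58 pixels (26.7%), with 0% in the Prrx1 domain. The pixels of that E10 section were chosen by Pitx1 for the most part (104 counts, beside 3 of Tbx4), it held 0 counts of Hoxc10, and Pitx1 is not a gene of the limb alone. Neither set of pixels is thus shown to be limb. The largest patch of Tbx5 pixels outside the heart domain had 30, 34, 36 and 24 pixels in the same order. Its median distance to the heart domain was 17.6, 6, 5.05 and 5.19 pixels, and it held at most 3.33% Prrx1 domain pixels. Pixels were 10, 25, 25 and 50 µm wide in that order, so distances and patch sizes in pixels cannot be compared between widths.

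The Tbx4 and Pitx1 pixels were compared with the Tbx5 pixels across all genes, with library as block, in a test added after the maps were seen. Pixels in the heart domain and pixels that belonged to both sets were left out on both sides. This left 184, 149, 135 and 126 Tbx4 and Pitx1 pixels in E10 10 µm replicate 1, E11 25 µm replicates 1 and 2 and E12. Of the Tbx5 pixels, 111, 91, 62 and 79 were left in that order. Besides the 3 genes that chose the pixels, 5 members were tested and 0 were called by edgeR (1 at an unadjusted p under 0.05, Meis2, DESeq2 0), beside 0.0255% of 7842 genes (2 genes). Hoxc10, a Hox gene of the lumbosacral level and hindlimb, was 70.6 CPM ± 64.7 in Tbx4 and Pitx1 pixels and 11.5 ± 13.6 in Tbx5 pixels (179 against 12 counts, log2 2.50, SE 0.42, adjusted p = 0.0346, edgeR), higher in 3 of 4 libraries. Peg10, an imprinted gene, was 254 ± 138 and 135 ± 74.3 (log2 0.97, adjusted p = 0.0346, edgeR). Both calls were lost in some alternatives (3 of 7 for Hoxc10, 4 of 7 for Peg10, adjusted p up to 0.524 and 0.417). Hoxc10 overlaps Hoxc5 in the annotation, so its reads may be shared. Without E10 10 µm replicate 1, edgeR called 2 members higher in Tbx4 and Pitx1 pixels, beside 85 of 6657 genes. They were Shox2 (log2 2.74, edgeR adjusted p = 6.69e-10) and Prrx2 (log2 1.06, edgeR adjusted p = 0.0344). That fit held only the alike E11 replicates and E12, so these p-values may count 1 layout more than once. The E11 replicates were not summed as 1 in that setting. With all libraries kept and the E11 replicates summed, no member was called.

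The pairing of members over pixels is given as Pearson's r of log2 values per library, a description over pixels that share library and depth. Meis1 and Meis2 were positively related in 11 of 11 libraries (0.142 to 0.679, median 0.260), and Prrx1 and Prrx2 in 10 of 11 (median 0.314, lowest -0.05). Tbx4 and Pitx1 had r of 0.255 to 0.719 in the 3 libraries where both were countable. Tbx4 and Tbx5 were also positively related in these, at 0.143 and 0.110 in the E11 25 µm replicates and 0.324 at E12, where the r of Tbx4 and Pitx1 was 0.255. Prrx1 and Tbx4 had r of 0.217 to 0.537 in the same 3 libraries. Prrx1 and Tbx15 were positive in 6 of 6 libraries (median 0.154). Prrx1 and Tbx5 were near 0 (-0.13 to 0.09 in 7 libraries), and Prrx1 and Pitx1 ran from -0.09 to 0.62 over 7 libraries.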

How the data were processed

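Transcripts were counted in 11 libraries of frozen mouse embryo sections. The authors deposited tables of whole-number counts per gene symbol and pixel, with no normalization. The submitters' processing notes name CASAVA 1.8.2 and the build GRCh38, a human build, and the aligner, annotation, use of strand and collapsing of duplicate molecules are not given in the sources used here. Symbols are those of mouse, and GENCODE M21 and RefSeq (GRCm38) were used for positions and promoters only. A gene with no column in a library was read as 0.

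The 10 members and all gene lists were chosen with earlier results of these data known. Groups are stage and pixel width from the labels. Tissue pixels were those whose total reached 0.1 times the library's 95th percentile. Counts were summed over tissue pixels, or inside and outside a domain, per library, and pixels were never replicates. CPM are sums scaled to 1000000. Sums were tested with edgeR 4.0.16 (limma 3.58.1, R 4.3.3): quasi-likelihood, TMM, default filter on low counts, robust fit of 6 group means (18233 genes, 5 residual degrees of freedom) or library as block for domains, Benjamini-Hochberg over all tested genes, threshold 0.05. A comparison across groups with 1 library assumes that it varies like the others. The heart domain and the neural domain were drawn where the list's Moran's I was at least 0.3, and the Prrx1 domain at 100 Prrx1 counts or more. The models were tested on simulated counts. Shares were compared by exact permutation tests in scipy 1.17.1. Intervals are 95% exact binomial or Poisson and, like floors of 3 counts, cover counting error only, since reads may not be independent molecules.

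Named in the text are all members, the 5 genes most like Prrx1 by the rule given there, and up to 3 called genes of the limb list in each direction. Of these, 1 gene is not reported here. Hoxc10 and Peg10 were named after their values were seen. Alternatives were size factors by relative log expression, no filter, all pixels, DESeq2 1.42.0, other domain sizes, no smoothing, each library left out, and the E11 25 µm libraries summed as 1. The antibody libraries were not used here.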

Additional observations from a re-analysis of the deposited data

Results flagged for a closer look

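Pixels left out as not tissue held 577 counts of the 10 members. These 1597 pixels carried 1.46% of all counts, and the summed level of the members in them was 528 CPM, against 525 CPM in tissue. They entered the comparisons above only in the alternative that kept all pixels, and were not described further.

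Foxf1 was flagged because its difference between the inside and the outside of the Prrx1 domain changed with stage by the test of that change itself (log2 -3.26, E11 and E12 minus E10, edgeR adjusted p = 0.0348). It was 16.3 CPM ± 13.7 inside and 3.29 ± 1.28 outside at E10 (higher inside in 5 of 6 libraries) and 9.25 ± 8.73 and 13.9 ± 8.88 at E11 and E12 (higher inside in 2 of 5). The call held in 5 of 11 alternatives and was lost in 6, with edgeR adjusted p from 0.0105 to 0.112. No group had 4 libraries or more, so no library could be tested as an outlier within its group.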

How the results depend on the processing

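No called member reversed direction in any alternative. Without the filter on low counts the number of members called was 1 for E11 against E10 at 10 µm, 1 at 25 µm, 3 for E12 against E10, 1 for E11 10 against 25 µm, 2 for E10 10 against 50 µm, 2 in the Prrx1 domain, 1 in the heart domain and 6 in the neural domain. Of 30104 genes, these fits called 1835 for E11 against E10 at 10 µm, 671 at 25 µm and 1328 for E12 against E10. They called 870 for E11 10 against 25 µm and 731 for E10 10 against 50 µm. They called 2060 of 30103 genes in the Prrx1 domain, 1845 of 28645 in the heart domain and 3757 of 29142 in the neural domain. With DESeq2 the number of members called was 1 for E11 against E10 at 10 µm (beside 948 of 18431 genes), 1 for E11 10 against 25 µm (554 of 19015), 1 for E10 10 against 50 µm (407 of 14929), 3 in the Prrx1 domain (659 of 14345) and 6 in the neural domain (2866 of 16143). With the E11 25 µm libraries summed as 1 it was 0 for E12 against E10, 1 in the heart domain and 0 in the Prrx1 domain at E11 and E12, and with 20% of pixels it was 1 in the heart domain. Leaving out 1 library at a time, members called ranged from 0 to 4 (E11 against E10 at 10 µm), 0 to 2 (E12 against E10), 0 to 1 (E11 10 against 25 µm), 0 to 1 (E10 10 against 50 µm), 0 to 1 (stage by width), 1 to 3 (heart domain), 0 to 1 (change of the Prrx1 domain with stage), 0 to 1 (Prrx1 domain at E10), 0 to 2 (at E11 and E12) and 0 to 2 (Tbx4 and Pitx1 pixels against Tbx5 pixels). The number of all genes called moved in these fits as well. It ran from 98 of 17859 to 969 of 18140 for E12 against E10, and from 905 of 11897 to 1431 of 11463 in the heart domain. Fewer libraries or genes enter these fits, and the causes were not tested beyond that.

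The E11 difference in hindlimb share (10 minus 25 µm, -16.8 points) turned to 3.06 with Tbx4 as the only hindlimb gene, and ranged from -59.7 to 26.0 with 1 library left out. The E10 difference (7.84 points) was 27.8 in Prrx1 domain pixels only and ranged from -1.33 to 19.7. The difference between inside and outside the Prrx1 domain (33.1 points) was 16.7 with 20% of pixels and 51.8 with Tbx4 only, and 29.1 to 37.0 with 1 library left out. The cause was not tested. With the replicate block, E11 10 against 25 µm called 0 members, as did the 4 E11 libraries without it. The correlation over genes of same-numbered deviations was 0.0565. With 2 libraries in each group the 2 deviations mirror each other, so this value cannot decide whether the numbers pair the sections. Tbx4 rested on 1 to 13 counts per E10 section, which limits comparisons among E10 sections.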
